A study of Homo sapiens with 8 samples.

Results

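The 10 genes described here are ATF4, the transcription factor of the integrated stress response (ISR), and 9 genes that act with it or under it: DDIT3, ATF3, ATF5, CEBPB, TRIB3, CHAC1, DDIT4, NUPR1 and PPP1R15A. They were chosen by symbol, with earlier results of these data known. Each matched 1 Ensembl identifier, and all 10 were listed in both deposited tables, among 21845 genes listed in both. RNA was sequenced from 2 established human renal cell carcinoma (RCC) lines, 769-P and CAKI-1, after 16 hours with or without branched-chain amino acids (BCAA), to ask how BCAA affect the RCC transcriptome. In the BCAA groups the medium held isoleucine at 0.38 mM, leucine at 0.38 mM and valine at 0.17 mM, and the other groups had none of the 3. There were 2 libraries in each of the 4 groups, 8 in all. No gene was altered in any group. The study's methods describe BCAA-depleted medium made from an RPMI 1640 powder that lacks amino acids and dialyzed serum. Whether the other amino acids were added back is not given in the sources used here, so a lack of BCAA alone and a lack of BCAA within a wider amino acid shortage cannot be told apart. Stocks of 769-P were kept in RPMI 1640 and those of CAKI-1 in MEM, so the base of the test medium was that of the 769-P stock and not of the CAKI-1 stock. Each line is 1 cell line, and nothing in the labels says that the paired libraries came from separate cultures, so p-values measure only the spread between these libraries, which may be technical.

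The 8 libraries held from 30979773 to 64256834 reads assigned to listed genes. In 769-P the libraries with BCAA were the deeper ones, with 64256834 and 55829324 reads against 39062721 and 40130258 without BCAA, and the part of depth in the results was not tested. The tubular and epithelial genes PAX8, KRT8, KRT18, CDH2 and CDH6 were present in both lines, PAX2 was listed only for 769-P, and CA9 was listed for neither. Of 6 markers of leukocytes and endothelium, CD3E and CDH5 were listed for neither line, and no library held more than 15 reads of any of PTPRC, CD14, PECAM1 and VWF. RNA was measured in bulk, so a lower value can be fewer expressing cells or less RNA per cell, and these cannot be told apart.

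The ISR begins with kinases that sense stress. GCN2 (gene EIF2AK4) senses uncharged tRNA when an amino acid is short, PERK (EIF2AK3) senses unfolded protein in the endoplasmic reticulum, PKR (EIF2AK2) senses double-stranded RNA and HRI (EIF2AK1) senses heme. Each phosphorylates the translation factor eIF2 on its alpha subunit, which slows most protein synthesis while ATF4 mRNA is translated more. ATF4 then binds C/EBP-ATF response elements, also known as amino acid response elements, and raises genes for amino acid uptake, amino acid synthesis and tRNA charging. The members cover the transcription factors of this pathway, an inhibitor of ATF4 (TRIB3), a brake on mTORC1 (DDIT4), an enzyme that degrades glutathione (CHAC1) and the phosphatase subunit that reverses eIF2 phosphorylation (PPP1R15A). The protein and its phosphorylation were not measured, only RNA.

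The start regions of the members were searched because the data bear on genes that moved together. RefSeq windows (GRCh38.p14) of 250 bases before a start were available for 9 members, in 17 windows. TGATGNAA, the core of the C/EBP-ATF response element, was searched on both strands and was in 2 of these 17 windows, 1 each of CHAC1 and ATF3, against 3.14% of all 35116 windows. TGACGTCA, the palindromic ATF/CRE element, was in 1 of the 17, that of PPP1R15A, against 1.65% of all windows. The windows of ATF4, DDIT3, CEBPB, TRIB3 and DDIT4, which all fell with BCAA in 769-P, and those of ATF5 held neither motif. Neither motif contains the other. The matching sites are shown in stretches of 30 bases on the plus strand, with the motif in capitals, because these members include the one that changed most in 769-P (CHAC1) and the phosphatase subunit that fell in both lines (PPP1R15A).
CHAC1, chr15:40953251-40953280, plus strand, with the element reading on the minus strand: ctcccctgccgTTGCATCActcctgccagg
ATF3, chr1:212565205-212565234, plus strand: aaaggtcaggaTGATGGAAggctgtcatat
PPP1R15A, chr19:48872352-48872381, plus strand: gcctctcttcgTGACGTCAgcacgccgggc
The element lay at bases -209 to -202 from the RefSeq start of CHAC1, at -191 to -184 from the upstream of 2 starts of ATF3, and at -58 to -51 from that of PPP1R15A. The CHAC1 site lies inside the GENCODE gene body, which begins upstream of the RefSeq start. All windows of ATF4, DDIT3 and TRIB3 also lie inside their GENCODE gene bodies, as does the ATF5 stretch shown next. A lack of a motif in them therefore does not cover the region before the GENCODE start. The following stretch precedes the most downstream start of ATF5, from base -250 to -27, and is shown because ATF5 is the member that rose with BCAA in 769-P. It held neither motif, as did the windows of the 5 members above that fell.
ATF5, chr19:49929995-49930218, plus strand: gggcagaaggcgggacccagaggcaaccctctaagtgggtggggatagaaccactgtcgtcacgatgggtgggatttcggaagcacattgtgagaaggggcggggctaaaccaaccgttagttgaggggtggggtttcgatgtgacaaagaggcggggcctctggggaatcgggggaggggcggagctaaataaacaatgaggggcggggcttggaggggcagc
A match describes letters only, and the absence of a match says only that these letters are not in the window.

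With BCAA, 769-P cells held less RNA of 9 of the 10 members, and 8 of these fell at least 2-fold. The glutathione-degrading enzyme CHAC1 fell most, to 13.4-fold below its level without BCAA, while ATF4 itself was 1.96-fold lower. ATF5 was the exception and rose. Over all 22391 genes tested in 769-P, 18.2% were called lower and 20.3% higher with BCAA, and 4.34% were called lower by at least 2-fold (limma with an intensity trend on log2(value + 1), Benjamini-Hochberg adjusted p of 0.05). The median log2 fold change of the 10 members was -2.72, against -0.022 over all genes tested. For 9 members both libraries with BCAA lay below both without, which held for 33.5% of all genes tested.

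ATF4 (ENSG00000128272, chr22:39519695-39522685, GRCh38) is a bZIP factor whose protein level is set mainly by translation. Its normalised read count in 769-P was 15887 and 16581 with BCAA and 32276 and 31461 without. The groups were far apart relative to the replicates, and the log2 fold change was -0.97 ± 0.040 (SE, n = 2 per group, limma, adjusted p = 3.94e-09). ATF4 has processed pseudogenes that could take or give reads. ATF4P4 was counted at 926 to 1345 reads per library in 769-P against 19390 to 25985 reads for ATF4, and its log2 fold change was -1.04.

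ATF3 (chr1:212565334-212620777) is a stress-induced bZIP repressor. Its normalised read count was 362 and 367 with BCAA and 2986 and 2813 without, a difference of 7.96-fold between the means and a log2 fold change of -2.99 ± 0.073 (SE). DDIT3, which encodes the pro-apoptotic factor CHOP (chr12:57516588-57521737), was at 242 and 261 with BCAA and at 1980 and 1815 without, with a log2 fold change of -2.91 ± 0.089. In both genes the libraries with BCAA lay far below those without, and the replicates lay close together. Of the exonic bases of DDIT3, 39.6% are shared with other annotated genes, mainly MARS on the opposite strand, whose own log2 fold change was -1.18. The strand setting of the counting is not given in the sources used here, so reads in the shared part cannot be told apart.

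CEBPB (chr20:50190734-50192689), a C/EBP factor that dimerises with ATF4, was at 1532 and 1432 with BCAA and at 6547 and 6892 without, a log2 fold change of -2.18 ± 0.057. NUPR1 (chr16:28532708-28539174), a small chromatin-associated stress protein, was at 178 and 199 with BCAA and at 1620 and 1608 without, a log2 fold change of -3.09 ± 0.097. The NUPR1 value with BCAA rested on 235 and 233 recovered reads, and the group means were 8.55-fold apart.

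ATF5 (chr19:49928702-49933935), a bZIP factor close to ATF4 that is also translated during the ISR, moved the other way. Its normalised read count was 1688 and 1720 with BCAA and 1200 and 1364 without, so both libraries with BCAA lay above both without. The log2 fold change was 0.41 ± 0.074 (SE, limma, adjusted p = 0.00071). That call was lost when any 1 of 3 libraries was left out: the adjusted p rose above 0.05 without replicate 1 or 2 with BCAA or replicate 1 without BCAA, while the log2 fold change stayed between 0.32 and 0.51. With the spread taken from the other 7 libraries of both lines, an alternative added after seeing the data, the call was kept whichever 769-P library was left out (limma, adjusted p from 0.00096 to 0.016). The gene shares 23.7% of its exonic bases, mostly with NUP62 on the opposite strand, and NUP62 rose by a like amount, with a log2 fold change of 0.37 (limma, adjusted p = 7.53e-05). In CAKI-1, NUP62 was at 0.23 (limma, adjusted p = 0.024) and ATF5 at -0.0043. The part of NUP62 reads in the ATF5 counts was not tested.

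Among the effectors, TRIB3 (chr20:362835-397559), a pseudokinase that binds and inhibits ATF4, was at 4535 and 4502 with BCAA and at 23552 and 23658 without, a log2 fold change of -2.38 ± 0.041. The means were 5.22-fold apart, with an SD of 23.1 with BCAA and 75.5 without. DDIT4 (chr10:72273920-72276036), which restrains mTORC1, was at 903 and 902 with BCAA and at 7951 and 8065 without, a log2 fold change of -3.15 ± 0.053. Its exonic bases overlap the annotated antisense gene DDIT4-AS1 over 41.2% of their length.

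CHAC1 (chr15:40952962-40956519) was at 158 and 156 with BCAA and at 2103 and 2122 without. Its log2 fold change of -3.74 ± 0.089 held rank 20 from the lowest of 22391 (limma, adjusted p = 6.68e-11), on 209 and 183 recovered reads with BCAA against 1693 and 1735 without. PPP1R15A, which encodes GADD34 (chr19:48872392-48876057), was at 2024 and 2301 with BCAA and at 12496 and 12527 without, a log2 fold change of -2.53 ± 0.060. The 8 members that fell at least 2-fold held ranks between 20 and 271 from the lowest log2 fold change of all genes tested, and ATF4 held rank 2586.

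**Figure D1:**
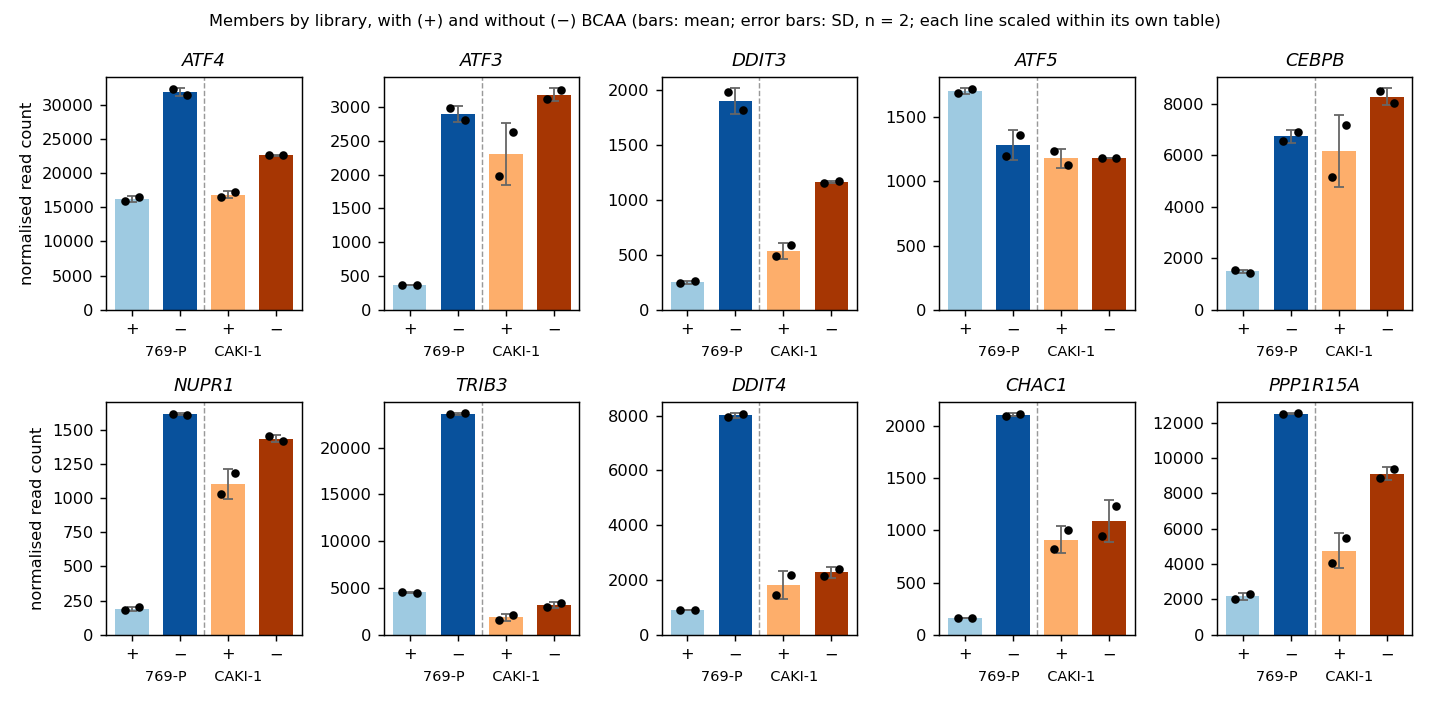
Normalised read count of each member in each library (points), with the mean (bars) and SD (error bars, n = 2), for 769-P (blue) and CAKI-1 (orange) with (+) and without (−) BCAA. Each line is scaled within its own table, so heights are compared only within a line. In 769-P the bar with BCAA is the lower one for every member except ATF5, and in CAKI-1 the 2 points with BCAA lie apart for CEBPB, DDIT4 and PPP1R15A.

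In CAKI-1, 7 of the 10 members were called lower with BCAA and none higher, and 1 of them, DDIT3, fell at least 2-fold. PPP1R15A and TRIB3 followed it, while ATF5, CHAC1 and DDIT4 were not called. Of 21347 genes tested, 9.05% were called lower, 10.8% higher and 0.679% lower by at least 2-fold (limma, as above). The median log2 fold change of the members was -0.44 against -0.0085 over all genes tested. Both libraries with BCAA lay below both without for 7 members, which held for 28.8% of all genes tested.

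DDIT3 in CAKI-1 was at 485 and 584 normalised reads with BCAA and at 1154 and 1167 without, a log2 fold change of -1.12 ± 0.10 (SE, n = 2 per group, limma, adjusted p = 2.63e-05). PPP1R15A was at 4049 and 5451 with BCAA and at 8858 and 9385 without, a log2 fold change of -0.96 ± 0.11. TRIB3 was at 1586 and 2148 with BCAA and at 2979 and 3383 without, a log2 fold change of -0.78 ± 0.12. In each of the 3 genes the groups did not overlap, and the library nearest to the other group was replicate 2 with BCAA.

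ATF4 in CAKI-1 was at 16462 and 17194 with BCAA and at 22678 and 22594 without, a log2 fold change of -0.43 ± 0.053, so it was 1.35-fold lower. Its pseudogene ATF4P4 was counted at 851 to 1143 reads per library and had a log2 fold change of -0.36. ATF3 was at 1986 and 2639 with BCAA and at 3120 and 3254 without, a log2 fold change of -0.48 ± 0.11. NUPR1 was at 1027 and 1184 with BCAA and at 1454 and 1419 without, a log2 fold change of -0.38 ± 0.085. These 3 were called with differences of at most 1.38-fold. CEBPB was at 5161 and 7148 with BCAA and at 8496 and 8024 without, with a log2 fold change of -0.44 ± 0.11 and an adjusted p of 0.019 (limma). The CEBPB call ended under quantile normalization (limma, adjusted p = 0.12), no filter on low values (limma, adjusted p = 0.060) and DESeq2 (adjusted p = 0.17), and the ATF3 call ended under quantile normalization (limma, adjusted p = 0.075). Without the intensity trend limma called no gene of the CAKI-1 table, and 5 members passed an unadjusted p of 0.05.

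The 3 members that were not called had wide intervals or values near 0. DDIT4 was at 1455 and 2179 with BCAA and at 2130 and 2415 without, so the groups overlapped, and its log2 fold change was -0.35 with a 95% confidence interval from -0.67 to -0.030 and an adjusted p of 0.12 (limma). CHAC1 was at 822 and 1003 with BCAA and at 951 and 1237 without, with a log2 fold change of -0.26, an interval from -0.54 to 0.025 and an adjusted p of 0.20 (limma). ATF5 was at 1234 and 1129 with BCAA and at 1182 and 1185 without, and its log2 fold change of -0.0043 had an interval from -0.18 to 0.17. These intervals leave out a change of 2-fold in either direction for all 3 genes.

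The 2 libraries of CAKI-1 with BCAA stood apart from each other for the members, and 2 libraries cannot show which of them departs. With BCAA, 9 of the 10 members were higher in replicate 2 than in replicate 1, by a median of 0.35 on the log2 scale, with DDIT4 at 0.58 and CEBPB at 0.47. Over the 11720 genes that averaged 100 or more normalised reads that median was 0.0033, with 51.0% higher in replicate 2, and the median size of the difference was 0.097. In the other 3 groups the median difference of the members between replicates was between 0.0051 and 0.039. Without replicate 2 with BCAA, the log2 fold changes of the members in CAKI-1 ran from -1.26 for DDIT3 to 0.060 for ATF5, and DDIT4 was at -0.64. In the fit within CAKI-1 alone, leaving out any 1 of its 4 libraries left no member called, and no gene of the table at all. At an unadjusted p of 0.05, 8 members passed without replicate 2 with BCAA, 7 without replicate 1 with BCAA, 4 without replicate 1 without BCAA and 3 without replicate 2 without BCAA. With the spread taken from the other 7 libraries of both lines, between 6 and 9 members were called in CAKI-1, with 9 when replicate 2 with BCAA was left out. Among the 7 called with all libraries, NUPR1 was then called in 2 of the 4 leave-outs (limma, adjusted p up to 0.080, without replicate 1 with BCAA or replicate 1 without BCAA), CEBPB in 3 (limma, adjusted p up to 0.062, without replicate 1 without BCAA) and the other 5 in all 4.

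The BCAA effect differed between the lines for all 10 members in the interaction term over the 8 libraries. For 9 members the effect was further down in 769-P, a call made for 10.1% of the 19406 genes tested in both lines, and for ATF5 it was further up, a call made for 10.9% of them. The 2 lines share no library. CHAC1 differed most, by -3.48 ± 0.17 on the log2 scale (SE, limma, adjusted p = 2.10e-08), followed by DDIT4 at -2.80 ± 0.18, NUPR1 at -2.71 ± 0.13 and ATF3 at -2.51 ± 0.14. The differences of DDIT3, CEBPB, TRIB3 and PPP1R15A lay between -1.79 and -1.58. ATF4 differed least among those that were further down, by -0.55 ± 0.064 (limma, adjusted p = 4.75e-05).

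ATF5 differed by 0.42 ± 0.11 (limma, adjusted p = 0.015). It was no longer called without 769-P replicate 2 with BCAA or without 769-P replicate 1 without BCAA. NUP62, the gene that shares exonic bases with ATF5, differed by 0.14 (limma, adjusted p = 0.22).

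The order of the members was not the same in both lines. CHAC1, DDIT4 and NUPR1, the 3 members with the largest fall in 769-P, had log2 fold changes between -0.38 and -0.26 in CAKI-1, while DDIT3 and PPP1R15A, the 2 with the largest fall in CAKI-1, were at -2.91 and -2.53 in 769-P. Across the 10 members, the log2 fold changes of the 2 lines had a Pearson's r of 0.37 and a Spearman's rho of -0.10, a description across genes that are not independent.

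**Figure D2:**
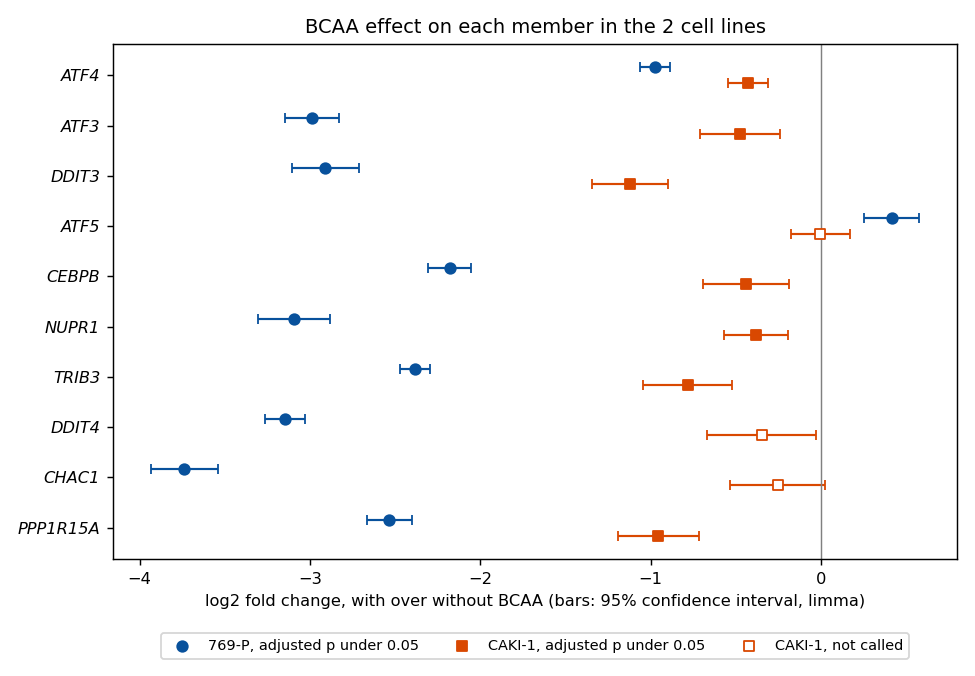
Log2 fold change with over without BCAA for each member in 769-P (circles) and CAKI-1 (squares), with 95% confidence intervals from limma. Filled symbols were called at an adjusted p of 0.05, and open ones were not. For 9 members the 769-P interval lies wholly to the left of the CAKI-1 interval, from -3.74 for CHAC1 to -0.97 for ATF4, and for ATF5 it lies to the right.

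The levels of the members also differed between the lines. Because the tables were normalized separately, levels across lines are given as reads per 1000000 reads on listed genes (RPM), side by side and with no test. The level of CHAC1 was 3.27 ± 0.018 RPM (SD, n = 2) in 769-P with BCAA, 23.3 ± 3.4 in CAKI-1 with BCAA, 27.5 ± 4.9 in CAKI-1 without BCAA and 43.3 ± 0.075 in 769-P without BCAA. Both CAKI-1 conditions thus lay between those of 769-P, and the 2 CAKI-1 conditions overlapped. The same order, from 769-P with BCAA through CAKI-1 with and without BCAA to 769-P without BCAA, was found for ATF4, DDIT3, DDIT4 and PPP1R15A. For ATF4 it ran from 337 ± 15 through 429 ± 15 and 570 ± 4.8 to 653 ± 17, with no overlap between neighbours. For DDIT3 it ran from 5.21 ± 0.35 through 13.6 ± 1.8 and 29.2 ± 0.068 to 38.9 ± 2.7, again with no overlap.

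The other members departed from that order. TRIB3 was at 47.6 ± 10 and 80.1 ± 6.7 in CAKI-1 with and without BCAA, below both the 93.7 ± 0.87 and the 484 ± 2.3 of 769-P. ATF3, CEBPB and NUPR1 were highest in CAKI-1 without BCAA, at 80.3 ± 1.9, 208 ± 9.6 and 36.2 ± 0.83 RPM. For ATF3, CAKI-1 with BCAA (58.9 ± 12) overlapped 769-P without BCAA (59.4 ± 3.0), and for CEBPB the same neighbours overlapped at 157 ± 36 and 138 ± 3.9. For ATF5 the whole span ran from 26.3 ± 2.2 in 769-P without BCAA to 35.3 ± 0.97 in 769-P with BCAA, with the 2 CAKI-1 conditions overlapping between them. In 9 members the lowest RPM was in a group with BCAA.

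Divided by exonic length as well, ATF4 was the most abundant member in all 4 groups, from 134 ± 6.0 RPM per kb in 769-P with BCAA to 260 ± 6.8 in 769-P without. TRIB3 was the second in 769-P, at 141 ± 0.68 without BCAA, and the fifth in CAKI-1 without BCAA, at 23.3 ± 2.0. CEBPB held the second place in both CAKI-1 groups, at 80.2 ± 19 with BCAA and 106 ± 4.9 without. ATF5 moved in rank with the others around it, from the fifth in 769-P with BCAA to the ninth without. NUPR1 was the lowest per kb in all 4 groups, but its merged exonic length of 5674 bases was the longest of the members. By RPM alone it was the lowest in no group. In 769-P it was at 3.92 with BCAA against 3.27 for CHAC1, and at 33.1 without against 26.3 for ATF5. In CAKI-1 it was at 28.2 with BCAA and 36.2 without, against 13.6 and 29.2 for DDIT3.

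**Figure D3:**
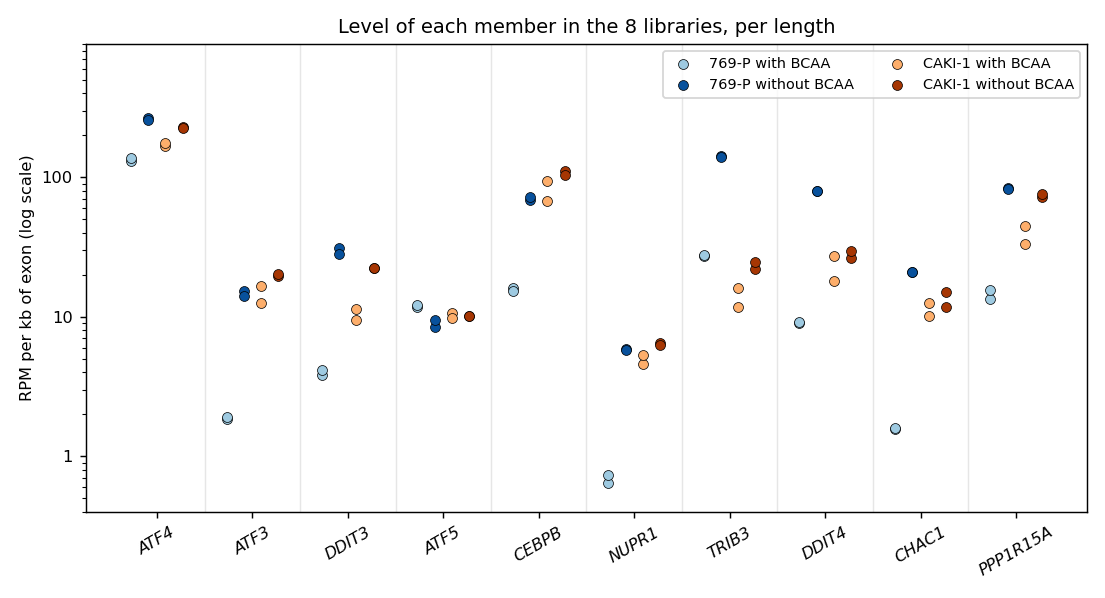
Level of each member in each of the 8 libraries in RPM per kb of exon, on a log scale. The tables of the 2 lines were normalized separately, and each point is 1 library. For CHAC1, DDIT4, DDIT3, ATF4 and PPP1R15A the CAKI-1 points lie between those of 769-P with and without BCAA, and for TRIB3 they lie below both.

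Genes that ATF4 is known to raise moved with the members in 769-P. Of a list of 28, all 28 were tested, 26 were called lower with BCAA and none higher, against 18.2% and 20.3% of all genes, and 23 fell at least 2-fold. Their median log2 fold change was -1.49. This list, like the members and the lists below, was chosen with earlier results of these data known, so its counts are no independent test. The 3 with the largest changes were PCK2, the mitochondrial phosphoenolpyruvate carboxykinase, PHGDH, which opens serine synthesis, and FGF21, a secreted stress hormone. PCK2 was at 664 and 644 normalised reads with BCAA and at 6095 and 6236 without, a log2 fold change of -3.23 ± 0.058. PHGDH was at 642 and 483 with BCAA and at 3935 and 4246 without, a log2 fold change of -2.87 ± 0.11. FGF21 had no read in either library with BCAA and 6 and 4 reads without, which is at least 5.05-fold lower when 3 reads over the 2 libraries are taken as the limit, and it is not listed for CAKI-1. The 2 that were not called, ALDH1L2 and CTH, had group means of 28.0 to 70.3 normalised reads.

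In CAKI-1 the same list held 27 tested genes, of which 9 were called lower, 3 higher and 15 neither, against 9.05% and 10.8% of all genes. None changed 2-fold, and the median log2 fold change was -0.12. The largest changes were those of GDF15, a secreted stress cytokine, at -0.71 ± 0.16, SARS1, the seryl-tRNA synthetase, at -0.61 ± 0.055, and PCK2 at -0.47 ± 0.078. GDF15 was at 7490 and 12232 normalised reads with BCAA and at 15747 and 15661 without, so that again replicate 2 with BCAA was the library nearest to those without, and its call ended under quantile normalization (adjusted p = 0.11) and DESeq2 (adjusted p = 0.14). PHGDH was at 6270 and 5835 with BCAA and at 6160 and 5912 without, with groups that overlapped. The 3 that rose were SLC7A5, a leucine transporter, at 0.44 ± 0.065, PSPH, the last enzyme of serine synthesis, at 0.40 ± 0.078, and VLDLR, a lipoprotein receptor, at 0.29 ± 0.069; they were named after their values were seen. In 769-P these 3 fell, with log2 fold changes of -2.80, -0.73 and -1.05. Of the 27 genes tested in both lines, the effect was further down in 769-P for 25 and further up for none, against 10.1% and 10.9% of all genes. With BCAA in CAKI-1, 20 of the 27 were higher in replicate 2 than in replicate 1, by a median of 0.069 on the log2 scale.

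Changes in the genes upstream of ATF4 stayed below 2-fold. Of 19 sensors and eIF2 control genes, 5 were called lower and 10 higher in 769-P, against 18.2% and 20.3% of all genes, and 3 lower and 5 higher in CAKI-1, against 9.05% and 10.8%. The median log2 fold changes were 0.19 and 0.092. The counts in 769-P fell to 1 lower and 1 higher without the intensity trend or without either library without BCAA, and to 4 lower and 2 higher without either library with BCAA. Over all genes of 769-P the calls fell too, from 4069 lower and 4536 higher to 1657 and 2001 without the intensity trend and to 658 and 1173 without replicate 1 without BCAA. The largest in 769-P were IMPACT, an inhibitor of GCN2 activation, at -0.58 ± 0.051, EIF2B1, a subunit of the eIF2 exchange factor, at 0.52 ± 0.053, and PPP1CC, a catalytic subunit of protein phosphatase 1, at 0.39 ± 0.042. In CAKI-1 they were EIF2A, a separate initiation factor, at -0.55 ± 0.062, EIF2B3, another exchange factor subunit, at 0.53 ± 0.095, and IMPACT at -0.48 ± 0.082. IMPACT was thus called lower in both lines, and its effect differed by -0.10 between them (95% confidence interval from -0.31 to 0.11). EIF2AK4, which encodes GCN2, had log2 fold changes of 0.21 ± 0.051 in 769-P, where it was called higher, and 0.13 ± 0.058 in CAKI-1, where it was not.

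The other 2 arms of the unfolded protein response, read through 14 target genes of ATF6 and XBP1, went in both directions. In 769-P, 6 were called lower and 7 higher, against 18.2% and 20.3% of all genes, and the median log2 fold change was 0.071. In CAKI-1, 2 were called lower and 5 higher, against 9.05% and 10.8%, with a median of 0.15. The largest in 769-P were XBP1 itself at -1.44 ± 0.043, SDF2L1, an endoplasmic reticulum cochaperone, at 1.29 ± 0.11, and HERPUD1, part of the degradation machinery of that organelle, at -1.28 ± 0.048. In CAKI-1 they were SDF2L1 at 0.62 ± 0.10, DNAJB9, another cochaperone, at -0.50 ± 0.076, and PDIA4, a disulfide isomerase, at 0.47 ± 0.058. XBP1 in CAKI-1 was at 3431 and 3818 normalised reads with BCAA and at 3575 and 3498 without, so its groups overlapped. The chaperones of the list that rose in 769-P, among them HSP90B1 at 1.02 ± 0.038 and MANF, a small protein of the organelle, at 1.11 ± 0.065, are named after their values were seen. HSPA5, which encodes BiP, the main chaperone of the organelle, was at -0.24 ± 0.036 in 769-P and -0.13 ± 0.057 in CAKI-1.

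**Figure D4:**
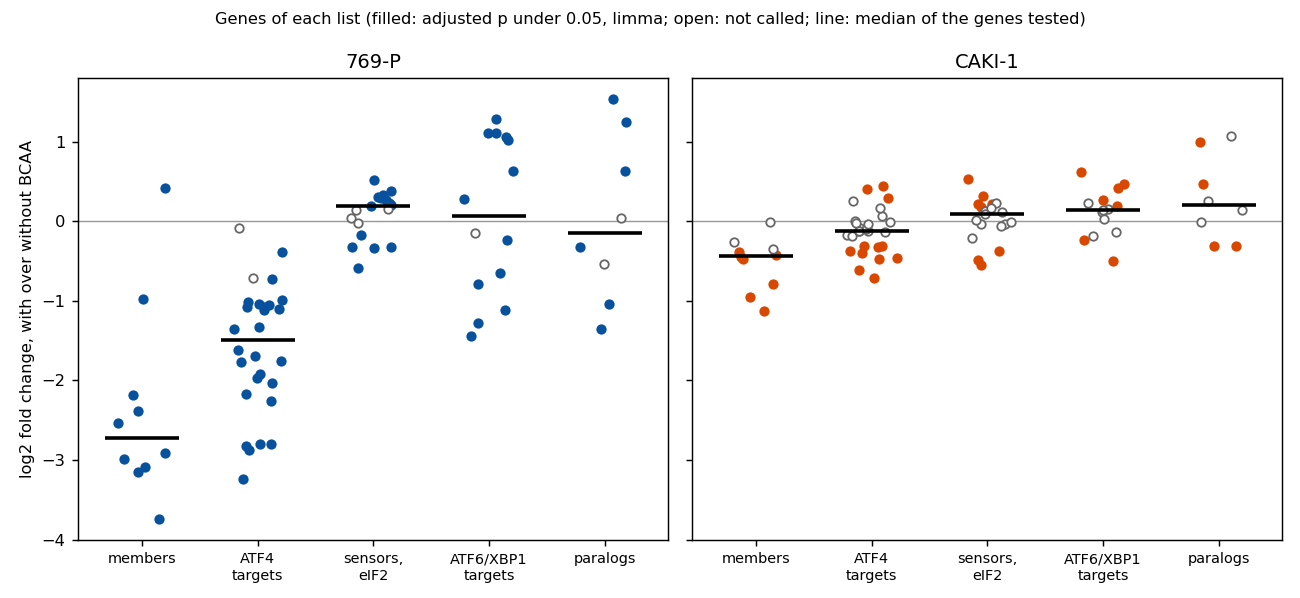
Log2 fold change with over without BCAA of each tested gene of the 5 lists in 769-P (left) and CAKI-1 (right); filled points were called at an adjusted p of 0.05, open ones were not, and the line is the median. In 769-P the medians of the members (-2.72) and of the ATF4 targets (-1.49) lie well below 0 while the sensors (0.19) and the ATF6 and XBP1 targets (0.071) do not, and in CAKI-1 the medians of the members (-0.44) and of the ATF4 targets (-0.12) lie nearer to 0 than in 769-P, while that of the ATF6 and XBP1 targets is 0.15.

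Paralogs of the members were called in both directions. Of 10, 8 were tested in each line: 3 were called lower and 3 higher in 769-P, against 18.2% and 20.3% of all genes, and 2 lower and 2 higher in CAKI-1, against 9.05% and 10.8%. In the fit within 769-P alone, both counts of that line were smaller whichever of its libraries was left out. CEBPG, a partner of ATF4 and itself an ATF4 target, fell in both, with log2 fold changes of -1.35 ± 0.048 in 769-P and -0.31 ± 0.066 in CAKI-1. TRIB1, a pseudokinase related to TRIB3, fell by a like amount in both lines, at -0.33 ± 0.081 and -0.31 ± 0.076. JDP2, a bZIP repressor close to ATF3 that is also on the target list, fell in 769-P at -1.04 ± 0.096 and was at 0.26 ± 0.087 in CAKI-1, where it was not called.

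CHAC2, the constitutive relative of CHAC1, rose in both lines. It was at 438 and 440 normalised reads with BCAA and 212 and 160 without in 769-P, a log2 fold change of 1.25 ± 0.15, and its log2 fold change in CAKI-1 was 0.99 ± 0.21. CHAC1 and CHAC2 thus moved in opposite directions in 769-P, -3.74 against 1.25. PPP1R15B, the constitutive counterpart of PPP1R15A, was at 0.040 ± 0.051 in 769-P, where it was not called, and rose in CAKI-1 at 0.47 ± 0.059. CEBPD rose in 769-P at 0.64 ± 0.072 and was at 0.14 ± 0.11 in CAKI-1. CEBPA was called in neither line, at -0.54 ± 0.28 and -0.011 ± 0.47. TRIB2 in 769-P was at 1.53 ± 0.52 on 5 to 46 reads per library (limma, adjusted p = 0.036). That call ended with a pseudocount of 0.1, no filter on low values, quantile normalization, no intensity trend, DESeq2 and any 1 library left out. DDIT4L in CAKI-1 was at 1.07 ± 0.52 and was not called. NUPR2 was listed for neither line, and TRIB2 and DDIT4L were each tested in 1 line.

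The genes most like ATF4 were found by the Euclidean distance of log2(value + 1), centred within each line, over the 8 libraries, among 14371 genes that averaged 10 or more normalised reads in each table. The nearest 5 that are not members were ZFP90 (distance 0.097), BNIP3L (0.12), ATF4P4 (0.12), KLF11 (0.13) and CA5B (0.13). Their log2 fold changes were between -1.04 and -0.90 in 769-P and between -0.49 and -0.36 in CAKI-1. ATF4P4 is a pseudogene of ATF4, and reads shared between the 2 genes cannot be told apart. The other 9 members were all farther from ATF4, with CEBPB nearest at a distance of 1.25. This distance takes in the size of a change, so a gene that fell much further than ATF4 lies far from it. Counting ATF4 itself, 7997 of the 14371 genes lay nearer than CEBPB and 14016 nearer than CHAC1.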

How the data were processed

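RNA of 769-P and CAKI-1 cells was sequenced after 16 hours with or without BCAA, with 2 libraries per group. The submitters' processing notes name Trim Galore, TopHat2 2.1.0, SAMtools 1.3.1, HTSeq 0.6.0, DESeq, DESeq2 and hg38; the annotation and strand setting are not given in the sources used here. The authors deposited 1 table per line of a signal per gene, which is the read count divided by a size factor per library and not by gene length. Every value (100%, tolerance 0.01) was a whole multiple of 1 read, so reads were recovered. Ensembl identifiers were matched to GENCODE 29 symbols (25032 of 25431 in 769-P and 23881 of 24190 in CAKI-1).

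The planned test for such values, limma 3.58.1 in R 4.3.3 (lmFit, eBayes with trend), was fitted on log2(value + 1) to genes with a mean of at least 1 in each line, without a limit on fold change; the added 1 shrinks the log2 fold change of genes with few reads. The difference between lines was the interaction term over 8 libraries. Benjamini-Hochberg adjustment covered all genes tested. An exact permutation test of 2 against 2 libraries cannot go below p = 0.333. edgeR 4.0.16 on the recovered reads called 3920 genes lower and 4874 higher in 769-P, and 2160 and 2237 in CAKI-1; DESeq2 1.42.0 was the other count test. The fits were tested on simulated data first. Members and lists were chosen with earlier results of these data known. All members and paralogs are named, and from the other lists up to 3 called genes per line with the largest log2 fold change. Alternatives changed the pseudocount, filter, scaling, spread, threshold, replicate block, tool and the libraries included.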

Additional observations from a re-analysis of the deposited data

Results flagged for a closer look

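The BCAA effect differed between the 2 cell lines for all 10 members, by the interaction term of limma at an adjusted p of 0.05. It also differed for 15 of the paralogs and list genes that the naming rule given above picked. Genes named for other reasons are not in that count, and some of them differed too. Among these were SLC7A5 at -3.24, VLDLR at -1.34, PSPH at -1.13, HSP90B1 at 0.87 and MANF at 0.70. Each value is the log2 fold change in 769-P minus that in CAKI-1. Among the members the differences were -3.48 for CHAC1, -2.80 for DDIT4, -2.71 for NUPR1, -2.51 for ATF3, -1.79 for DDIT3, -1.74 for CEBPB, -1.60 for TRIB3, -1.58 for PPP1R15A, -0.55 for ATF4 and 0.42 for ATF5. Among ATF4 target genes they were -2.88 for PHGDH, -2.76 for PCK2, -1.05 for GDF15 and -1.01 for SARS1. Among paralogs they were -1.30 for JDP2, -1.05 for CEBPG, -0.43 for PPP1R15B and 0.50 for CEBPD. CEBPD was not called with a pseudocount of 0.1, median centering, quantile normalization or no intensity trend, nor in every fit that left out a library. Without the intensity trend, the paralogs called further down in 769-P went from 3 to 2. Among sensors and eIF2 control genes they were 0.43 for EIF2B1, 0.27 for PPP1CC and -0.39 for EIF2B3. Without the intensity trend, the calls in this list fell from 3 further down and 4 further up in 769-P to 0 and 1. EIF2B3 was thus not called in that fit, and at most 1 of EIF2B1 and PPP1CC was. Over all genes the calls fell from 1966 and 2122 to 794 and 813. Among targets of ATF6 and XBP1 the differences were -1.48 for XBP1, -1.05 for HERPUD1, 0.66 for SDF2L1 and 0.64 for PDIA4. Groups of 2 libraries were too small to look for a library far from the others of its group.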

How the results depend on the processing

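In 769-P, 9 members were called lower under each alternative, except 8 at 2-fold or more, and with each library left out; the call of ATF5 as higher was lost (0) without the intensity trend and at 2-fold or more, and ranged from 0 to 1 with a library left out. In CAKI-1 the count of 7 went to 0 without the intensity trend and to 1 at 2-fold or more, and ranged from 0 to 9 with a library left out (0 in the fit within CAKI-1, 6 to 9 with the spread from the other 7 libraries, an alternative chosen after seeing the data). Under the remaining settings it was 5 to 8. For the difference between lines, 9 members were further down, except 8 at 2-fold or more, and the call of ATF5 as further up was lost (0) without the intensity trend, at 2-fold or more and at an adjusted p of 0.01, with 0 to 1 when a library was left out. The count of 10 called for the difference ranged from 9 to 10 with a library left out, as did that in 769-P.

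Same-numbered libraries shared little deviation: their deviations from the group means had a correlation of -0.088 in 769-P and 0.061 in CAKI-1. These values cannot show whether the libraries were paired by culture or batch, which the labels do not say. With a replicate block 10 members were called in 769-P, 8 in CAKI-1 (DDIT4 was added, adjusted p = 0.021) and 10 for the difference.

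Direction turned only in values that were not called. In CAKI-1, ATF5 was 0.037 after median centering and ran from -0.068 to 0.060 with a library left out. CEBPA in CAKI-1 was 0.00060 with a pseudocount of 10, 0.031 after median centering, 0.055 under quantile normalization, 0.013 with edgeR and 0.031 with DESeq2, and ran from -0.57 to 0.55 with a library left out (0.42 without replicate 1 without BCAA). PHGDH in CAKI-1 was -0.054 under quantile normalization and -0.0090 with edgeR (left out: -0.048 to 0.055, with -0.026 without replicate 2 without BCAA), and XBP1 was -0.015 under quantile normalization (left out: -0.044 to 0.11). With a library left out, CEBPD in CAKI-1 ran from -0.080 to 0.36, PPP1R15B in 769-P from -0.017 to 0.097, and the differences between lines from -1.09 to 0.037 for CEBPA, -0.097 to 0.057 for TRIB1, -0.050 to 0.56 for CHAC2 and -0.21 to 0.0072 for IMPACT. The count of ATF4 target genes called lower in 769-P was 22 to 27 in all of these, and in CAKI-1 it was 0 without the intensity trend and in each fit within CAKI-1 that left out a library. The 2 libraries per group limit each estimate, and the causes were not tested.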
